A study of Mus musculus with 8 samples.

Results

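The measurements described here are those of 8 genes of the complement system, C1qa, C1qb, C1qc, C3, Cfb, Cfp, C3ar1 and C5ar1, out of 16889 genes in a table of UMI counts (unique molecular identifiers, each standing for a captured transcript) of single cells from the mouse colon. The genes were chosen by name, with the C1q chains taken as macrophage genes and Cfb and C3 as genes known from these data to be higher in cKO mice. The levels of the C1q chains across cell types and the difference of Cfb and C3 between conditions therefore chose the members, and they are given as values with their errors and without a test. The other comparisons carry a test. All 8 genes passed the filter on low counts.

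Cells came from the lamina propria of 8 female CD98hcΔCX3CR1 littermates of 6 to 12 weeks, which carry floxed alleles of Slc3a2 (the gene of the CD98 heavy chain) and a tamoxifen-inducible Cre driven from the Cx3cr1 locus together with YFP. Tamoxifen (100 µl of 20 mg/ml, intraperitoneally, daily for 5 days) was given to the 4 cKO mice to excise exon 3 of Slc3a2 in cells that express Cx3cr1, and the 4 control mice, of the same genotype, received the carrier corn oil alone. Colons were taken on day 7, Cd11b+ cells positive for Ccr2 or Cd64 were sorted, and each mouse was loaded into its own well of a droplet device with 3′ counting. Tamoxifen itself was given to cKO mice alone, so its effect and that of the deletion cannot be told apart, and cells that do not express Cx3cr1 keep the gene.

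Complement is a set of plasma and cell-derived proteins that mark particles for removal. C1q, built of the A, B and C chains that C1qa, C1qb and C1qc encode, binds antibodies and dying cells and starts the classical pathway, and tissue macrophages are its main source. C3 is the component on which all pathways meet, factor B (Cfb) binds C3b and supplies the protease of the alternative pathway, and properdin (Cfp) stabilizes that enzyme. C3ar1 and C5ar1 encode the receptors for the fragments C3a and C5a, through which complement activates myeloid cells.

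After filtering, 3213 cells remained, between 83 and 724 per mouse, with 497531 to 3762314 UMIs per mouse. Between 0 and 13 barcode labels of a mouse recurred in another mouse. Control replicate 3 and cKO replicate 5 stood apart with 85 and 83 cells, and results that move without them are given both ways. The cells were grouped into 9 clusters without use of any complement gene. By their markers, 387 cells were macrophage-like (led by Fcrls and Pf4), 265 were macrophage-like with a median of 1181 UMIs (called low-UMI macrophage-like), 611 were monocyte-like (Chil3, Ly6c2), 533 dendritic-like, 182 lymphoid-like and 86 stromal-like. The sorted cells were labelled monocytes and macrophages, so the last 3 groups go against the label. The remaining 3 clusters, called by leading genes, were led by Gdf15 (581 cells), by Cebpb and Ier5 (329 cells, median 1728 UMIs) and by Saa3 and Il1a (239 cells). Levels are CPM (UMIs of the gene scaled to a fixed total of UMIs in the same sum of cells, as in bulk RNA-seq), which is not scaled by transcript length, and sums per mouse and cluster were used from 20 cells.

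The targeted gene, Slc3a2, gave 358, 264, 233 and 493 CPM in control mice and 291, 357, 323 and 309 CPM in cKO mice over all cells, and its log2 fold change was 0.02 ± 0.21 (SE, adjusted p = 0.976, edgeR). By cluster Slc3a2 was called lower in that led by Saa3 and Il1a (-1.14 ± 0.28, SE, adjusted p = 0.0301, edgeR) and was not called in the others tested. It gave -0.47 in the cluster led by Gdf15 and -0.57 in that led by Cebpb and Ier5. Dendritic-like cells gave -0.61, monocyte-like cells -0.13, macrophage-like cells 0.23 and low-UMI macrophage-like cells 0.34. The 3′ counting reads transcripts outside the excised exon, so these values do not measure the deletion itself. Whether the deletion changed them was not tested.

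All 3 C1q genes lie next to each other on the minus strand of chromosome 4 (GRCm38), in the order C1qb (136880129 to 136886187), C1qc (136889804 to 136893065) and C1qa (136895917 to 136898803), within 18675 bases. Cfb (34856374 to 34862518) and C3 (57203970 to 57228136) lie on the minus strand of chromosome 17, C3ar1 on chromosome 6 (122847138 to 122856161), C5ar1 on chromosome 7 (16246743 to 16259540) and Cfp on the X chromosome (20925454 to 20931555), all on the minus strand. The gene model Gm20547, which joins C2 and Cfb, overlaps Cfb by 6107 bases on the same strand, so reads in the shared exons cannot be assigned to one of them. C2 alone held 30 UMIs in all cells against 622 UMIs of Cfb.

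Promoter windows of RefSeq (GRCm38.p6, 250 bases before to 50 bases after the start) were read for 6 of the 8 genes. They are not shown for C1qa and Cfb. The windows of C1qb and C1qc are printed because the chains had like levels across clusters, and that of C3 because its level differed between conditions. Each is written 5′ to 3′ on the minus strand, and capitals mark matches to a searched motif.
C1qb, chr4:136886151-136886450: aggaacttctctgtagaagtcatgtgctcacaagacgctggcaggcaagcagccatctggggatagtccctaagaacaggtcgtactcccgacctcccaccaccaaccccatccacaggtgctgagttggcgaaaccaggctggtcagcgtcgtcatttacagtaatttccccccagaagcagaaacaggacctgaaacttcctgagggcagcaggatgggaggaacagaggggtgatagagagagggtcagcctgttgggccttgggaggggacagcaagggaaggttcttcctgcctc
C1qc, chr4:136892865-136893164: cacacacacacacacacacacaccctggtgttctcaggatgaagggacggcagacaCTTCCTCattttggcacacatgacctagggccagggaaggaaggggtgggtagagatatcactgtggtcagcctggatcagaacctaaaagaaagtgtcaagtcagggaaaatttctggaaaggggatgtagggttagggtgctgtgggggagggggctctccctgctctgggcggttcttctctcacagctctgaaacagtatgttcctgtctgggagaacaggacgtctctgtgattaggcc
C3, chr17:57228087-57228386: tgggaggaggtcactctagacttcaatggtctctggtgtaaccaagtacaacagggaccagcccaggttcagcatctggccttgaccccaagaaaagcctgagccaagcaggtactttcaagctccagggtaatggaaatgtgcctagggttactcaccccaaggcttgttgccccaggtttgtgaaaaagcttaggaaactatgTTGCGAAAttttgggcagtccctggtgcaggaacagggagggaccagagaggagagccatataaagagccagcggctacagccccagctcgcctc
Searched on both strands were the interferon-stimulated response element core GAAANNGAA, the STAT site TTCNNNGAA, the κB site GGGNNTTCC, the C/EBP site TTGCNNAA and the PU.1 site GAGGAAG. C3 held 1 match, to the C/EBP site, at bases -45 to -38 with the first transcribed base as 0. C1qc held a PU.1 match at -194 to -188 on the opposite strand, and C1qb held none of these letters. The shares of all 32851 promoters of this length with a match were 10.8% for C/EBP, 13.6% for PU.1, 8.56% for the response element core, 8.3% for the STAT site and 5.82% for κB.

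The C1q chains were highest in the macrophage-like cluster and stepped down through the clusters between macrophage-like and monocyte-like cells. In control mice C1qa gave 7645 CPM ± 328 (SD, n = 3) in the macrophage-like cluster and 6558 CPM ± 534 (SD, n = 3) in the low-UMI macrophage-like cluster. The cluster led by Cebpb and Ier5 gave 3048 CPM ± 374 (SD, n = 3) and that led by Gdf15 gave 2475 CPM ± 581 (SD, n = 4), and these neighbours do not differ beyond their spread. In the cluster led by Saa3 and Il1a the control values of C1qa were 799 and 1543 CPM. In monocyte-like cells C1qa gave 72.2 CPM ± 30.4 (SD, n = 3) and in dendritic-like cells 103 CPM ± 8.34 (SD, n = 4).

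Cells that should lack C1q give a level to compare with. Lymphoid-like cells of control mice gave 179 CPM ± 51.2 (SD, n = 3) of C1qa, above monocyte-like and dendritic-like cells. Of these lymphoid-like cells 16.9% held UMIs of all 3 chains. The C1qa level of monocyte-like and dendritic-like cells is thus not read as expression, and where these UMIs came from was not tested. In the plot of the C1q chains by cluster both macrophage-like clusters lead for all 3 genes, while the clusters led by Cebpb and Ier5 and by Gdf15 change places for C1qb, at 3127 and 3172 CPM in control mice. C1qb and C1qc gave 7521 CPM ± 277 and 5406 CPM ± 171 (SD, n = 3) in macrophage-like cells and 65.8 CPM ± 20.9 and 35.1 CPM ± 26.4 in monocyte-like cells of control mice.

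**Figure D1:**
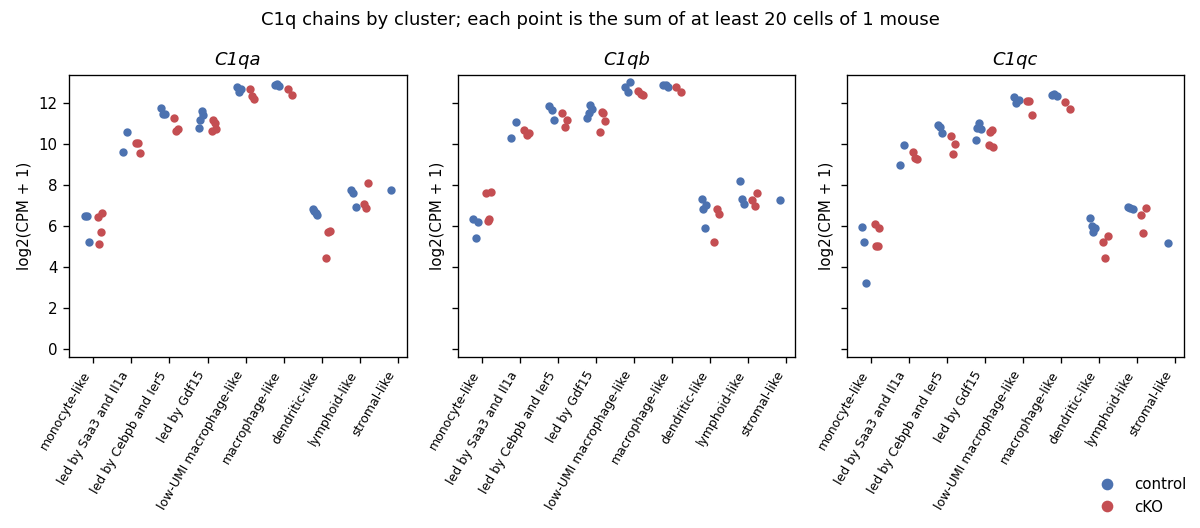
Levels of C1qa, C1qb and C1qc as log2(CPM + 1) by cluster, control in blue and cKO in red, each point being the summed cells of 1 mouse with at least 20 cells in the cluster. In both macrophage-like clusters every C1qa point lies between 4807 and 7996 CPM, and in monocyte-like cells between 34.0 and 99.9 CPM.

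In single cells most macrophage-like cells held all 3 chains. Of the 307 macrophage-like control cells, 97.7% had at least 1 UMI of each of the 3 chains, and 91.0% of the 134 low-UMI macrophage-like control cells did so at a much lower depth. The clusters between held both kinds of cells. In the cluster led by Gdf15, 57.0% of the 379 control cells had all 3 chains and 17.9% had none, and in that led by Saa3 and Il1a 50% of the 100 control cells had all 3 and 27.0% none. In monocyte-like control cells, at a median of 4190 UMIs, 1.85% had all 3 chains, against 16.9% of lymphoid-like control cells at 3574 UMIs. Thinned to 1000 UMIs per cell, C1qa was found in 98.4% of macrophage-like, 51.5% of Gdf15, 42.7% of Saa3 and Il1a, 6.67% of monocyte-like and 11.5% of lymphoid-like control cells.

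**Figure D2:**
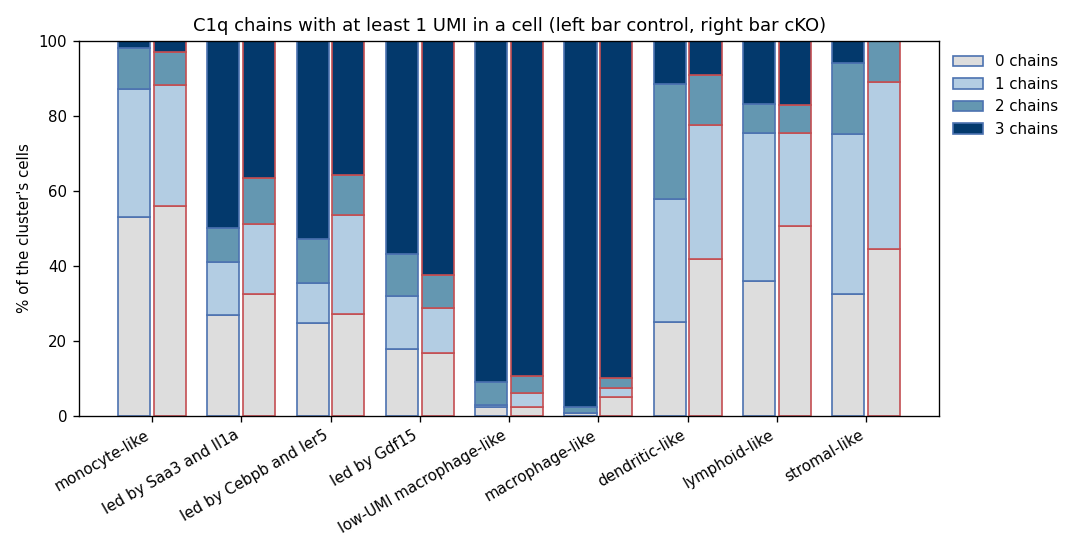
Percentage of the cells of each cluster with at least 1 UMI of 0, 1, 2 or 3 of the C1q chains at full depth, left bar control and right bar cKO, cells pooled over mice. Nearly all macrophage-like cells hold the 3 chains, and the clusters led by Gdf15, Cebpb and Ier5, and Saa3 and Il1a mix cells with 3 and cells with 0.

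The share of C1q UMIs that each chain gave also differed by cluster. Over the 8 mice, C1qa made up 36.8% to 37.9% and C1qb 32.4% to 40.1% of the C1q UMIs in macrophage-like cells. For these shares a mouse was used from 100 C1q UMIs in the cluster, whatever its number of cells. Control replicate 3 and cKO replicates 5 and 6 had 4, 6 and 13 macrophage-like cells, and the 32.4% came from control replicate 3. In the cluster led by Saa3 and Il1a, C1qb made up 45.0% to 52.2% over the 5 mice with at least 100 C1q UMIs there, above every macrophage-like value. The cluster led by Gdf15 lay between, at 37.4% to 46.0% over 8 mice. In monocyte-like cells 2 mice, both cKO, had at least 100 C1q UMIs, with 48.9% and 56.4% of them from C1qb, while pooled lymphoid-like cells gave 40.4% in control and 35.8% in cKO mice. The source of the C1qb UMIs in monocyte-like cells was not tested.

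Between conditions the C1q chains were lower in cKO mice over all cells, by amounts that did not pass the test. C1qa gave 2333, 2475, 1645 and 1511 CPM in control mice and 1686, 1353, 1108 and 1239 CPM in cKO mice. The groups overlapped, since cKO replicate 5 lay above control replicates 3 and 4. The log2 fold change of cKO against control was -0.47 ± 0.18 (SE, adjusted p = 0.169, edgeR). For C1qb, 2545, 2497, 1833 and 1756 CPM in control mice stood against 1684, 1608, 1322 and 1555 CPM in cKO mice. These groups did not overlap, with a log2 fold change of -0.39 ± 0.15 (SE, adjusted p = 0.171, edgeR). C1qc gave -0.58 ± 0.19 (SE, adjusted p = 0.111, edgeR). None of the 6 tested members was called over all cells by edgeR or DESeq2, and 4 of them had an unadjusted p under 0.05 (edgeR). Of all 11387 genes tested, 2343 had an unadjusted p under 0.05 in the same fit. Over all cells 4.48% of the 11387 genes tested were called, 2.99% higher and 1.48% lower in cKO mice. In such sums fewer cells of a type and less RNA per cell cannot be told apart.

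Without control replicate 4, C1qc passed the threshold (-0.72, adjusted p = 0.0303, edgeR). Without control replicate 3 and cKO replicate 5, the log2 fold changes were -0.65 for C1qa, -0.48 for C1qb and -0.74 for C1qc (adjusted p = 0.0751, 0.111 and 0.0719, edgeR).

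The make-up of the sorted cells moved with these values. Macrophage-like cells were 14.0% ± 10.1 (SD, n = 4) of the cells of control mice and 6.10% ± 2.05 (SD, n = 4) of those of cKO mice, while monocyte-like cells were 7.58% ± 3.04 and 30.9% ± 8.55 (SD, n = 4). Where each mouse kept its own cluster shares of UMIs and every cluster was given its pooled control level, C1qa gave a log2 ratio of the group means of -0.26, against -0.56 measured. For C1qc the values were -0.28 and -0.67. Within the macrophage-like cluster C1qa gave 7596, 7996 and 7344 CPM in 3 control mice and 6650 and 5465 CPM in 2 cKO mice. The 2 cKO values lay below the control values, with a log2 fold change of -0.41 ± 0.27 (SE, adjusted p = 0.772, edgeR). None of the 6 tested members was called in that cluster, against 0.539% of the 10754 genes tested there.

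In the other clusters with enough sums the log2 fold change of C1qa was -0.13 ± 0.25 (SE) in low-UMI macrophage-like cells, -0.25 ± 0.28 (SE) in the cluster led by Saa3 and Il1a, -0.37 ± 0.21 (SE) in that led by Gdf15 and -0.76 ± 0.25 (SE) in that led by Cebpb and Ier5. None of the 6 tested members was called in them, where 0.186%, 0.511%, 0.735% and 0.093% of genes were called. With clusters built on all genes the value for the cluster led by Gdf15 turned to 0.68 (adjusted p = 0.194, edgeR), so its direction depended on how cells were assigned. In the cluster led by Saa3 and Il1a, C1qa gave 0.44 without control replicate 4. In monocyte-like cells C1qa gave -0.02 ± 0.33 and C1qc 0.40 ± 0.40 (SE), and C1qb was higher in cKO mice, at 65.8 CPM ± 20.9 (SD, n = 3) and 139 CPM ± 71.4 (SD, n = 4), with 1.03 ± 0.35 (SE, adjusted p = 0.232, edgeR). The value of C1qb was 0.11 with clusters built on all genes (adjusted p = 0.991, edgeR), and it passed the threshold with no filter on low counts (1.02, 0.016).

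C1qa was called lower in cKO mice in the dendritic-like cluster, where its level lay below that of lymphoid-like cells in both conditions. The control values were 112, 107, 98.7 and 93.5 CPM and the cKO values 20.5, 52.3 and 52.9 CPM, without overlap. The log2 fold change was -1.38 ± 0.32 (SE, adjusted p = 0.0264, edgeR), where 0.372% of genes were called. Lymphoid-like cells gave 179 CPM ± 51.2 and 176 CPM ± 85.9 (SD, n = 3) in control and cKO mice. Under 17 alternatives the log2 fold change in dendritic-like cells stayed between -1.66 and -1.07. The call was kept with DESeq2 (-1.28, adjusted p = 0.0261) and with no filter on low counts (-1.36, 0.000364). The call was lost in sums of at least 10 cells (adjusted p = 0.0584, edgeR), with each cluster fitted alone (0.155), without Scrublet doublets (0.0725) and with clusters built on all genes (0.218). It was also lost without control replicate 1 (adjusted p = 0.0616, edgeR) or 2 (0.145) and without cKO replicate 6 (0.276), 7 (0.0964) or 8 (0.0718). C1qb and C1qc gave -0.64 ± 0.32 and -0.99 ± 0.36 (SE) there and were not called.

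Cfb, the protease precursor of the alternative pathway, was low in control mice and about 10-fold higher in cKO mice. Over all cells Cfb gave 7.97, 6.73, 10.2 and 10.1 CPM in control mice, from 30, 22, 6 and 30 UMIs. The cKO mice gave 141, 48.4, 87.7 and 72.6 CPM, from 70, 80, 218 and 166 UMIs. The lowest cKO mouse lay above the highest control mouse, and the highest value came from cKO replicate 5, the mouse with 83 cells. The group means were 8.75 CPM ± 1.69 and 87.3 CPM ± 39.1 (SD, n = 4), a ratio of 9.99, and the log2 fold change was 3.41 ± 0.32 (SE). It was 3.21 without control replicate 3 and cKO replicate 5, and between 3.18 and 3.62 under all 15 alternatives.

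**Figure D3:**
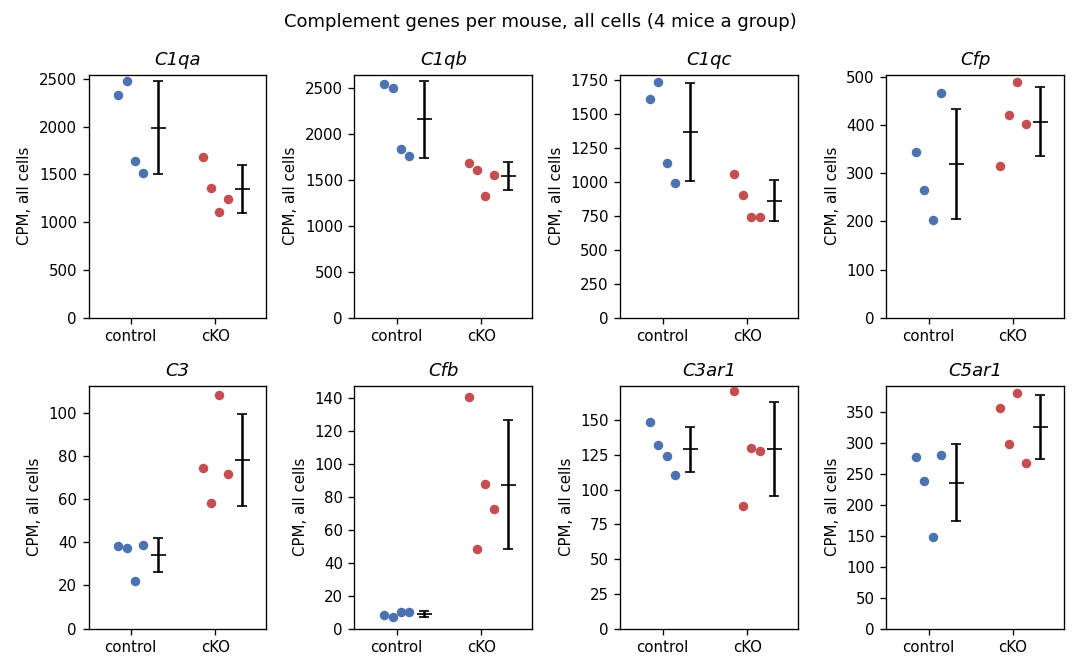
CPM of the 8 genes over all cells of each mouse, control in blue and cKO in red, with the mean and SD of the 4 mice beside the points. Cfb lies between 6.73 and 10.2 CPM in control and between 48.4 and 141 CPM in cKO mice, and for C1qb, C3 and Cfb no cKO point overlaps the control points. The share of all genes that lie apart in this way is not given, so this is a description.

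Cfb was higher in cKO mice without overlap in 5 clusters, with as few as 2 mice in a group. The share of all genes that lie apart by cluster in this way is not given, so this is a description. In the macrophage-like cluster 3 control mice gave 5.13, 12.5 and 20.3 CPM and 2 cKO mice 97.7 and 79.4 CPM, a log2 fold change of 2.96 ± 0.55 (SE). In monocyte-like cells 3 control mice gave 16.3, 12 and 0 CPM and 4 cKO mice 194, 46.7, 74.8 and 57.8 CPM, with 3.09 ± 0.57 (SE). The cluster led by Gdf15 gave 9.29, 16, 11.0 and 12.5 CPM in control and 139, 55.7, 86.3 and 101 CPM in cKO mice, with 2.88 ± 0.40 (SE). Every cKO mouse lay above every control mouse in these 3 clusters. The highest level was that of the cluster led by Saa3 and Il1a, at 67.3 and 20.6 CPM in control and 179.5, 162 and 241 CPM in cKO mice, with 2.53 ± 0.50 (SE), and 1.68 without control replicate 4.

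The values were less certain in 3 clusters. Low-UMI macrophage-like cells gave 0, 0 and 23.9 CPM in control and 61.3, 58.9 and 73.2 CPM in cKO mice. These groups did not overlap, but the control values rest on 1 UMI and the cKO values on 3, 3 and 7 UMIs. The cluster led by Cebpb and Ier5 gave 1.35 ± 0.70 (SE), and dendritic-like cells 1.88 ± 1.13 (SE), from 3 UMIs in 435 control cells and 3 UMIs in 98 cKO cells (0.712 and 3.43 CPM pooled). Lymphoid-like cells held 0 UMIs of Cfb in 89 control cells, a count that allows a share of at most 3.37% of cells with a UMI, and 1 UMI in 93 cKO cells.

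The share of cells with a Cfb UMI, drawn from the same UMIs as the levels, was higher in cKO mice and is a description. In macrophage-like cells it was 4.56% of 307 control cells (95% Wilson interval 2.74 to 7.51%) and 32.5% of 80 cKO cells (23.2 to 43.4%). In the cluster led by Saa3 and Il1a it was 9% of 100 control cells (4.81 to 16.2%) and 44.6% of 139 cKO cells (36.6 to 52.9%). In monocyte-like cells it was 3.70% of 162 control cells and 24.7% of 449 cKO cells. Thinned to 1000 UMIs the macrophage-like shares were 0.73% and 7.43%. These intervals pool cells over mice and cover counting error only. With control levels in every cluster and each mouse's own cluster shares, Cfb gave a log2 ratio of 0.42, against 3.32 measured.

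**Figure D4:**
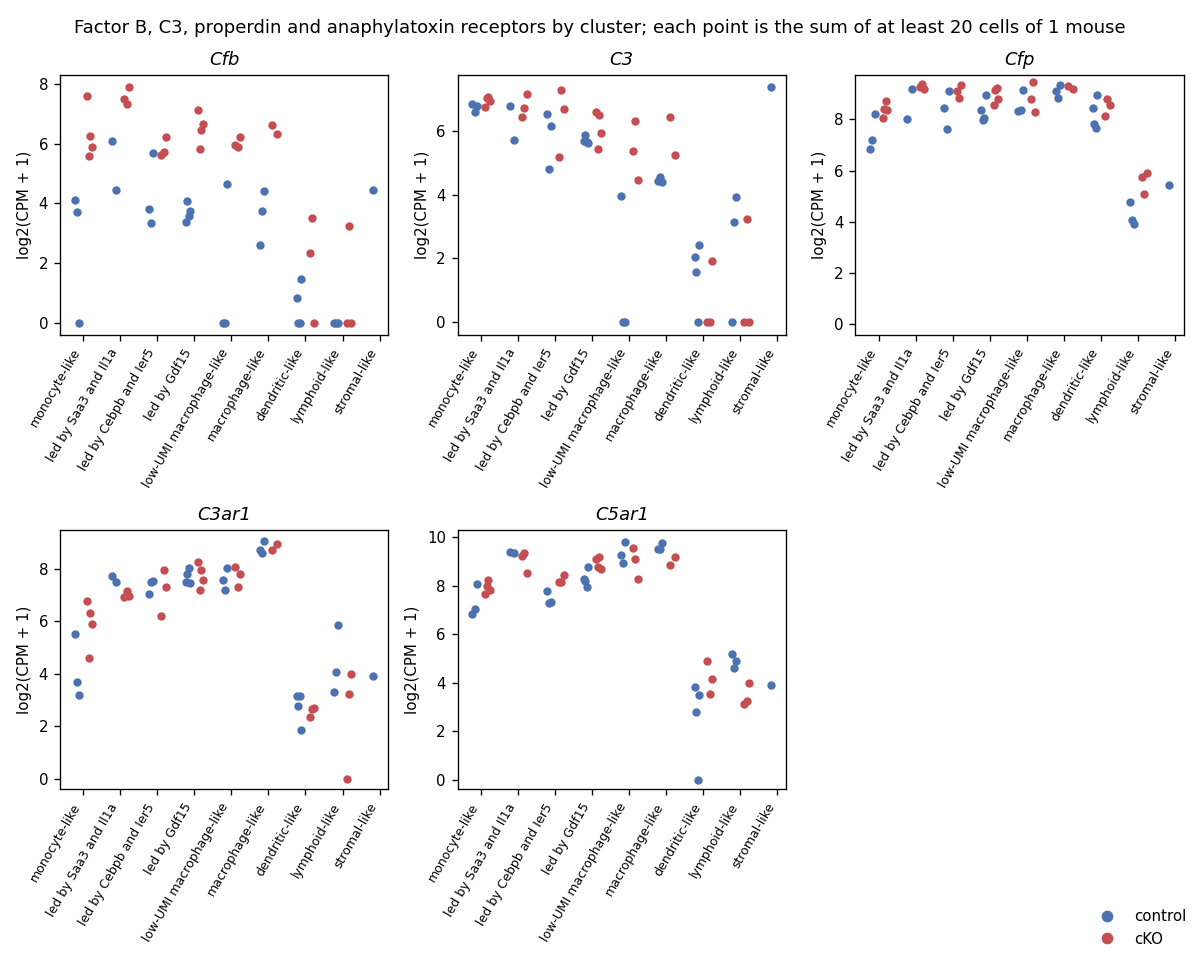
Levels of Cfb, C3, Cfp, C3ar1 and C5ar1 as log2(CPM + 1) by cluster, control in blue and cKO in red, each point being the summed cells of 1 mouse with at least 20 cells in the cluster. For Cfb the cKO points lie above the control points in the macrophage-like, low-UMI macrophage-like, monocyte-like, Gdf15, and Saa3 and Il1a clusters, while for C3 the monocyte-like points overlap. The share of all genes that lie apart in this way is not given.

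C3, the central component, was 2.29-fold higher in cKO mice over all cells. It gave 38.3, 37.3, 22.1 and 38.7 CPM in control mice and 74.4, 58.0, 108 and 71.7 CPM in cKO mice. The groups did not overlap, and the log2 fold change was 1.26 ± 0.22 (SE). It was 1.64 once lymphoid-like and stromal-like cells were left out, and 1.20 without control replicate 3 and cKO replicate 5.

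C3 differed from Cfb in where its transcripts lay. Among sums of at least 20 cells the highest control value, 169 CPM, was that of the stromal-like cells of 1 mouse, and the pooled stromal-like cells gave 318 CPM in control and 196 CPM in cKO mice. Stromal-like cells are a minority of the sort, 4.32% ± 1.99 (SD, n = 4) of control and 1.34% ± 0.78 (SD, n = 4) of cKO cells. Among myeloid cells C3 was highest in monocyte-like cells, at 107 CPM ± 9.48 (SD, n = 3) in control and 124 CPM ± 12.3 (SD, n = 4) in cKO mice, values that overlapped, with a log2 fold change of 0.34 ± 0.29 (SE). Macrophage-like cells gave 20.5, 22.5 and 20.3 CPM in control and 86.9 and 37.0 CPM in cKO mice, with 1.43 ± 0.47 (SE), and the value was 0.71 without cKO replicate 7 and 1.94 without cKO replicate 8. Dendritic-like cells gave 2.36 CPM ± 1.84 (SD, n = 4) in control mice.

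For C3, control levels in every cluster with each mouse's own cluster shares gave a log2 ratio of 0.66, against 1.20 measured. Markers of neutrophils, which can express C3, moved with it. The 8 neutrophil markers summed to 31.8 to 57.9 CPM in control and 76.1 to 134 CPM in cKO mice, and to 110 and 129 CPM in the pooled monocyte-like cells and 152 and 211 CPM in the pooled cells led by Saa3 and Il1a of control and cKO mice. Their part in the C3 result was not tested.

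In 2 of the 3 clusters that mixed cells with and without C1q, C3 was not higher in the cells with all 3 chains in any mouse compared. In the cluster led by Cebpb and Ier5, C3 gave 43.0 CPM in the 100 control cells with all 3 chains and 109 CPM in the 67 with at most 1, and 39.2 and 224 CPM in cKO cells. In that led by Saa3 and Il1a the values were 39.2 and 84.8 CPM in control and 89.3 and 131 CPM in cKO cells. In the cluster led by Cebpb and Ier5 these C3 levels rest on 12 and 11 UMIs in control and 8 and 29 UMIs in cKO cells. In that led by Saa3 and Il1a they rest on 11 and 17 UMIs in control and 30 and 52 UMIs in cKO cells. A mouse was compared from 5 cells on each side, and a tie counted as not higher. C3 was higher in the cells with all 3 chains in 0 of the 7 and 0 of the 5 mice compared. The cluster led by Gdf15 gave 49.6 and 51.7 CPM of C3 in control cells, higher with all 3 chains in 1 of 3 mice, and 54.3 and 78.5 CPM in cKO cells, higher in 0 of 4 mice. Cfb in the cluster led by Saa3 and Il1a gave 46.3 CPM with all 3 chains and 9.98 CPM with at most 1 in control cells, from 13 and 2 UMIs, and 181 and 174 CPM in cKO cells. For the cluster led by Gdf15 the values were 12.6 and 10.3 CPM in control and 84.8 and 106 CPM in cKO cells, and for that led by Cebpb and Ier5 32.2 and 9.87 CPM in control and 83.3 and 84.9 CPM in cKO cells. Cells were sorted here by the C1q reads themselves and differed in depth, so these values are a description.

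Cfp, which encodes properdin, was spread over all myeloid clusters, dendritic-like cells included. In control mice it gave 551 CPM ± 100.1 (SD, n = 3) in macrophage-like, 316 CPM ± 133 (SD, n = 4) in dendritic-like and 185 CPM ± 97.8 (SD, n = 3) in monocyte-like cells, against 18.8 CPM ± 6.54 (SD, n = 3) in lymphoid-like cells. Over all cells it gave 344, 266, 202 and 467 CPM in control and 316, 420, 490 and 401 CPM in cKO mice, which overlapped. The log2 fold change was 0.45 ± 0.23 (SE, adjusted p = 0.303, edgeR). In monocyte-like cells the control mice gave 114, 144 and 296 CPM and the cKO mice 262, 340, 416 and 332 CPM. The log2 fold change there was 1 ± 0.31 (SE, adjusted p = 0.156, edgeR), where 0.8% of genes were called, and Cfp passed the threshold without control replicate 4 (1.58, adjusted p = 0.00188, edgeR), without control replicate 3 and cKO replicate 5 (1.17, 0.037) and with no filter on low counts (0.98, 0.0141). With clusters built on all genes it was 0.49 (adjusted p = 0.83, edgeR).

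C3ar1 was highest in the macrophage-like cluster in both conditions, and the mean of C5ar1 was highest there in control mice and in low-UMI macrophage-like cells in cKO mice. In control mice C3ar1 gave 442 CPM ± 72.7 (SD, n = 3) in macrophage-like cells, 209 CPM ± 39.5 (SD, n = 4) in the cluster led by Gdf15 and 21.6 CPM ± 20.0 (SD, n = 3) in monocyte-like cells, the last being no higher than the 27.2 CPM ± 26.1 (SD, n = 3) of lymphoid-like cells. C5ar1 gave 773 CPM ± 75.3 (SD, n = 3) in macrophage-like cells, 674 CPM ± 211 (SD, n = 3) in low-UMI macrophage-like cells, 673 and 645 CPM in the 2 control mice of the cluster led by Saa3 and Il1a, and 171 CPM ± 83.9 (SD, n = 3) in monocyte-like cells. In cKO mice these first 3 clusters gave mean levels of C5ar1 of 524, 539.8 and 537 CPM. Dendritic-like cells gave 6.06 CPM ± 2.48 (SD, n = 4) of C3ar1 and 7.40 CPM ± 5.80 (SD, n = 4) of C5ar1.

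In 5 mice both clusters reached 20 cells, namely control replicates 1, 2 and 4 and cKO replicates 7 and 8. There log2(CPM + 1) in monocyte-like minus macrophage-like cells was -1.29 ± 0.67 (SD, n = 5) for Cfp, -3.88 ± 1.42 for C3ar1 and -1.76 ± 0.84 for C5ar1. These means, spreads and tests join both conditions. Each of the 3 genes was higher in macrophage-like cells in 5 of 5 mice. Exact two-sided sign-flip permutation tests gave p = 0.0625 for each gene, which is the smallest p that 5 mice allow (Benjamini-Hochberg adjusted over the 3 tests, also 0.0625).

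Between conditions neither receptor was called over all cells. C3ar1 gave 149, 132, 124 and 111 CPM in control and 171, 88.3, 130 and 128 CPM in cKO mice, with a log2 fold change of 0.08 ± 0.19 (SE, adjusted p = 0.865, edgeR). C5ar1 gave 277, 238, 148 and 281 CPM in control and 358, 299, 382 and 267 CPM in cKO mice, with 0.55 ± 0.20 (SE, adjusted p = 0.139, edgeR). Both genes overlapped between the groups.

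In macrophage-like cells C5ar1 gave 735, 724 and 860 CPM in control and 467 and 582 CPM in cKO mice, with -0.63 ± 0.30 (SE, adjusted p = 0.66, edgeR), whereas in monocyte-like cells it gave 0.66 ± 0.28 (SE, adjusted p = 0.408, edgeR). With clusters built on all genes the monocyte-like value turned to -0.25 (adjusted p = 0.918, edgeR), and without control replicate 4 it was 1.20 and passed the threshold (0.0498). C3ar1 in monocyte-like cells gave 44.7, 12 and 8.23 CPM in control and 107, 23.3, 77.6 and 57.8 CPM in cKO mice. Its log2 fold change was 1.52 ± 0.43 (SE, adjusted p = 0.0874, edgeR), and it passed the threshold without control replicate 1 (2.70, adjusted p = 0.0214, edgeR) and without cKO replicate 6 (1.83, adjusted p = 0.00772, edgeR). With clusters built on all genes it was 0.01 (adjusted p = 1, edgeR). The difference of the cKO effect between macrophage-like and monocyte-like cells was tested directly and was not called for any of the 6 tested members, where 0.0837% of genes were called. The fit held no term for the mouse, so both sums of a mouse were treated as independent. This difference was largest for C3ar1 and C1qb, at -1.52 ± 0.54 and -1.32 ± 0.47 (SE, adjusted p = 0.579 for each, edgeR), and was -1.28 ± 0.41 (SE, adjusted p = 0.457, edgeR) for C5ar1.

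Pooled over the mice of a condition, the clusters that held the transcripts differed between control and cKO mice. Macrophage-like cells held 60.9% of all C1q UMIs of the control mice and 33.7% of those of the cKO mice, and the cluster led by Gdf15 held 22.7% and 31.4%. These pooled shares carry no spread between mice. Most macrophage-like C1q UMIs of control mice came from replicates 1 and 2, with 16056 and 17074 UMIs from 138 and 130 cells. Control replicates 3 and 4 gave 599 and 3895 UMIs from 4 and 35 cells. For C3 the monocyte-like cells held 18.0% of the UMIs in control and 52.3% in cKO mice, and the stromal-like cells 26.9% and 3.18%. For Cfb the clusters led by Saa3 and Il1a and of monocyte-like cells together made up most UMIs in cKO mice, at 29.03% and 29.96%, against 18.2% and 6.82% in control mice. Dendritic-like cells held 38.3% of the Cfp UMIs in control and 9.91% in cKO mice.

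**Figure D5:**
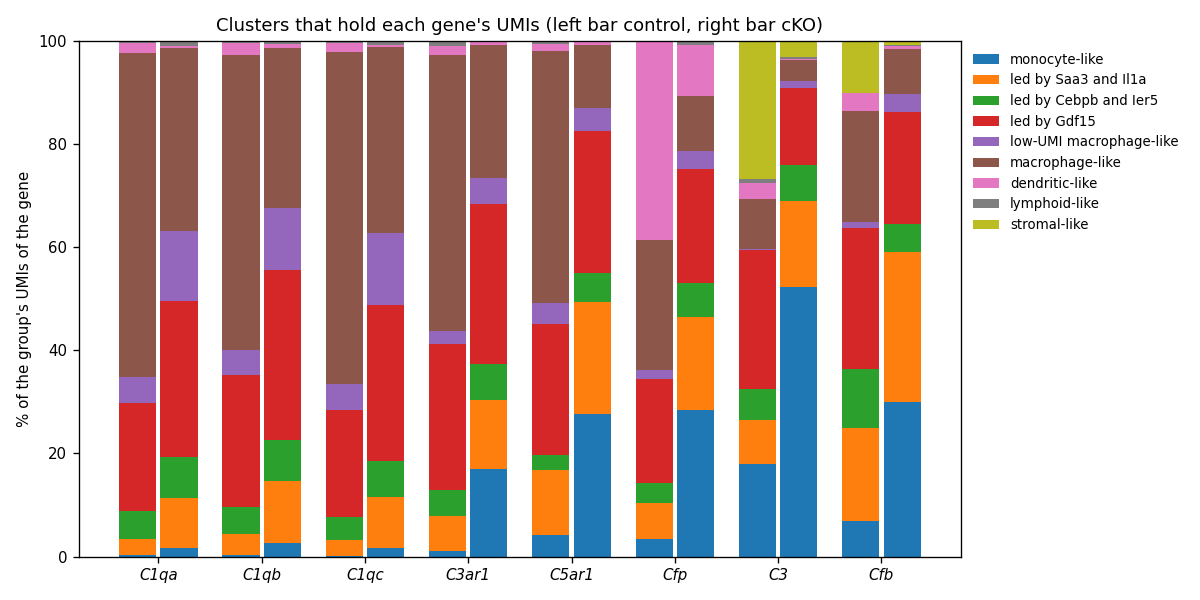
Percentage of the UMIs of each gene in a condition that came from each cluster, cells pooled over mice, left bar control and right bar cKO. Macrophage-like cells give 62.7% of the C1qa UMIs in control and 35.5% in cKO mice, and monocyte-like cells the largest part of the C3 UMIs in cKO mice.

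Of 48 other genes of the complement system, 36 had UMIs in the table analysed and 23 were tested over all cells. Of these, 0 were called higher and 1 lower in cKO mice, beside the 2.99% and 1.48% of all genes tested that were called in those directions. In unadjusted tests 7 had p under 0.05, beside 2343 of all 11387 genes tested. Of the 23 genes, 8 had positive and 15 negative log2 fold changes, with a median of -0.66 against -0.03 over all genes tested. The 8 stromal markers summed to 639 to 2117 CPM in control and 237 to 783 CPM in cKO mice, and their part in these values was not tested.

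The 6 other complement genes with the highest mean level were not called. Of the subunits of complement receptors 3 and 4, Itgam gave 128 CPM ± 19.4 in control and 184 CPM ± 32.6 in cKO mice (SD, n = 4), with a log2 fold change of 0.63 (adjusted p = 0.0682, edgeR), Itgb2 gave 0.36 and Itgax -0.20. The genes of proteins that can bind C1q, Calr, Cd93 and Lrp1, gave -0.13, 0.30 and 0.32. In the same fit C1s1 and Serping1, a protease and an inhibitor of the classical pathway, gave -1.62 and -1.09 (adjusted p = 0.062 and 0.0514, edgeR), and these 2 were chosen after their values were seen. Pooled stromal-like cells gave 1017 and 750 CPM of C1s1 in control and cKO mice, against 1.66 and 1.98 CPM in pooled macrophage-like cells. The part of the stromal-like cells in the fold change was not tested.

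Over the 51 sums per mouse and cluster, the genes outside the complement list with a pattern most like that of C1qa were Ms4a7 (Pearson r of log2(CPM + 10) = 0.954), Apoe (0.918), Cd72 (0.906), Cd63 (0.896) and Acp5 (0.887). The chains were alike at 0.986 for C1qa with C1qb and 0.988 for C1qa with C1qc. Those most like Cfb were Acod1 (0.830), Il1rn (0.826), Oasl2 (0.791), Irf7 (0.777) and Rtp4 (0.775). The genes most like C3 were Nupr1 (0.865), Zeb2 (0.836), Ikbke (0.825), Csf3r (0.797) and Thbs1 (0.794). Cfb and C3 were alike at 0.709, while Cfb with C1qa gave 0.303 and C3 with C1qa 0.151. These sums share mice and depth, so the correlations are a description.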

How the data were processed

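Single cells from the colon of 4 control and 4 cKO mice were analysed from the UMI counts that the authors deposited, with no normalization. The submitters' processing notes name Cell Ranger, STAR 2.5.3a, R 3.5.0 and the build mm10. Cells with at most 5% mitochondrial UMIs, no hemoglobin UMI, and log10 UMIs and log10 genes of at least 2.8 and 2.6 were kept (3213 of 5947 barcodes). The 57 doublets marked by Scrublet (scanpy 1.11.5) were kept, and an alternative leaves them out. Cells were normalised and clustered (scran 1.30.0, Ward clustering of 9 principal components) on 11947 genes, with 238 genes left out, among them all complement genes and the genes the study lists as changed within clusters. A cluster was named from at least 3 markers among its 10 leading genes.

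Counts were summed per mouse, and per mouse and cluster from 20 cells. Both sets of sums were tested with edgeR 4.0.16 (TMM, quasi-likelihood test, Benjamini-Hochberg adjustment over all genes, threshold 0.05) on genes over 1 CPM in at least 3 sums, in R 4.3.3. The fits were tested on simulated data. Monocyte-like and macrophage-like cells of a mouse were compared by exact sign-flip permutation tests (scipy 1.17.1). P-values over all cells and of the sign-flip tests measure the spread between mice. In the fit by cluster the spread was estimated over the sums of all its clusters together. That fit held no term for the mouse, so sums of the same mouse were treated as independent. Intervals are 95% Wilson intervals, and a count of 0 allows 3 counts. Both cover counting error only. Alternatives were DESeq2 1.42.0, a likelihood ratio test, other filters and clusters, and each mouse left out.

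Named were the 8 genes, other complement genes past the threshold over all cells, the 6 other complement genes with the highest mean level, the 5 genes most alike to C1qa, Cfb and C3, and Slc3a2. The members and lists were chosen with earlier results of these data known. Of the complement genes past the threshold, 1 is not reported here.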

Additional observations from a re-analysis of the deposited data

Results flagged for a closer look

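The C3 level of control replicate 3 over all cells, 22.1 CPM, lay far from the other control mice, of which the highest gave 38.7 CPM, and its gap to the nearest of them was 0.916 of the range of the group. This mouse had 85 cells, and the value rests on 13 UMIs of C3. Among the 48 groups of samples examined in this way 1 stood out, and chance marks about 1 in 20.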

How the results depend on the processing

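No paired analysis of cKO against control was possible because control and cKO mice share no replicate numbers. Over all cells 0 of the 6 tested members were called, and 0 to 1 when a mouse was left out. Of the other complement genes 1 was called, against 4 with DESeq2, 6 with the likelihood ratio test, 3 with no filter on low counts, 2 without Scrublet doublets, 2 at up to 10% mitochondrial UMIs, 0 to 4 when a mouse was left out, and 0 without control replicate 3 and cKO replicate 5, an alternative chosen after seeing the data. By cluster 1 call was made, against 2 with the likelihood ratio test, 4 with no filter on low counts, 2 with 7 clusters, 0 with 12 clusters, 0 with clusters built on all genes, 0 in sums of at least 10 cells, 0 with each cluster fitted alone, 0 without Scrublet doublets, 0 to 3 when a mouse was left out, and 2 without control replicate 3 and cKO replicate 5. The cause of these changes was not tested. The log2 fold change of C3 over all cells, 1.26, was 1.64 without lymphoid-like and stromal-like cells. In sums of at least 10 cells, which add 1 mouse, monocyte-like minus macrophage-like cells gave -1.26 for Cfp, -3.91 for C3ar1 and -1.61 for C5ar1 (exact permutation p = 0.03125 for each). With 7 clusters no macrophage-like cluster was matched, so that comparison has no value there. The low level of Cfb in control mice, 6 to 30 UMIs per mouse, limits the precision of its fold change.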
